A study of Mus musculus with 6 samples.

Results

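*Grin1*, *Grin2a*, *Grin2b*, *Grin2d*, *Grin3a*, *Grm4*, *Grm5*, *Grm7*, and *Grm8* encode subunits of the NMDA receptor and metabotropic glutamate receptors other than mGluR6, the receptor of ON bipolar cells (BCs). They were taken by gene symbol, and all 9 were found among the 21744 genes of the table and passed the filter on low values. Whole retinas of mice on a C57BL/6J and 129S6 mixed background were sequenced at postnatal day 7 (P7), with 3 libraries labelled control and 3 labelled *Lhx4* null, each from the retinas of 1 mouse. The study describes its *Lhx4* null mice as carrying a tdTomato knock-in allele over a loxP allele of *Lhx4*, with *Six3*-Cre to inactivate the gene in the developing retina, and, for its retinal recordings, its control mice as wild type or *Lhx4* loxP/+. For these libraries the genotype labels say control or *Lhx4*-null, and the sample titles Control or *Lhx4* Mutant. *Lhx4* itself lay between 19.1 and 23.8 FPKM (fragments scaled to transcript length and to library size) in control libraries and between 29.0 and 31.2 FPKM in the others, a log2 difference of 0.51 that did not pass the test (adjusted p = 0.098 from limma). The gene value does not show which exons were read. Of 10 BC markers, 4 were called in the same comparison, all of them lower in the second group, *Grm6* among them. Of all genes tested, 0.224% were called. Another 1 of the BC markers was higher in the second group at an unadjusted p under 0.05 from limma. This list is not independent of these data. It holds *Grm6*, *Trpm1*, *Scgn*, and *Pcp2*, which the study reports as lower in its *Lhx4* null retinas at P7. As the gene value of *Lhx4* does not show whether the gene was inactivated, the second group is called the null-labelled libraries. Pigment epithelium was removed at dissection.

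An NMDA receptor is a cation channel that opens when glutamate and a co-agonist, glycine or D-serine, are bound and the membrane is depolarized. The GluN1 subunit, the product of *Grin1*, is obligatory, GluN2 subunits (*Grin2a* to *Grin2d*) carry the glutamate site, and GluN3 subunits (*Grin3a*, *Grin3b*) bind glycine. The metabotropic receptors act through G proteins: group I, with *Grm5*, through Gq and phospholipase C, and group II (*Grm2*, *Grm3*) and group III (*Grm4*, *Grm6*, *Grm7*, *Grm8*) through Gi and Go. In the retina, NMDA receptors are best known from ganglion and amacrine cells (ACs), mGluR6 from the dendrites of rod and ON cone BCs, and mGluR4, mGluR7, and mGluR8 mainly from presynaptic terminals. The comparison asked whether the transcripts of these receptors differed between the genotypes at an age when BCs form their synapses.

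None of the 9 receptor genes passed the test. The log2 fold changes, null-labelled minus control, ran from -0.19 in *Grm5* to 0.15 in *Grin1*, with 7 genes lower and 2 higher and a median of -0.06 against 0.01 over the 15200 genes tested. Fold changes are on the log2(FPKM + 0.1) scale, on which low genes appear to change less than they do. With limma and Benjamini-Hochberg adjustment, 0 of the 9 were called at an adjusted p below 0.05, where 0.224% of all genes tested were. At an unadjusted p under 0.05 from limma 0 of the 9 were counted, against 8.15% of all genes tested. The lowest adjusted p of the 9 was 0.74 from limma. In 0 of the 9 did all libraries of a group lie on the same side of the other group, which held for 14.2% of all genes tested. With 3 libraries against 3, the smallest two-sided p an exact permutation test allows is 0.1.

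The intervals show which changes the values are compatible with. All 9 of the 95% intervals from limma held 0 and lay within a 2-fold change in either direction. The lowest bound was -0.64, in *Grm5*, and the highest was 0.44, in *Grin3a*. *Grm6*, outside the 9, is given for scale: its log2 fold change was -1.49, with an interval from -1.84 to -1.14 (adjusted p = 0.0091 from limma). The interval of *Grm6* thus lay below all 9 of the others. The difference between *Grm6* and the other genes was not itself tested, and the adjusted p of *Grm6* rose to 0.056 or 0.051 without null-labelled replicate 2 or 3, to 0.061 with the replicate number as a block, and to 0.065 without the mean-variance trend.

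**Figure D1:**
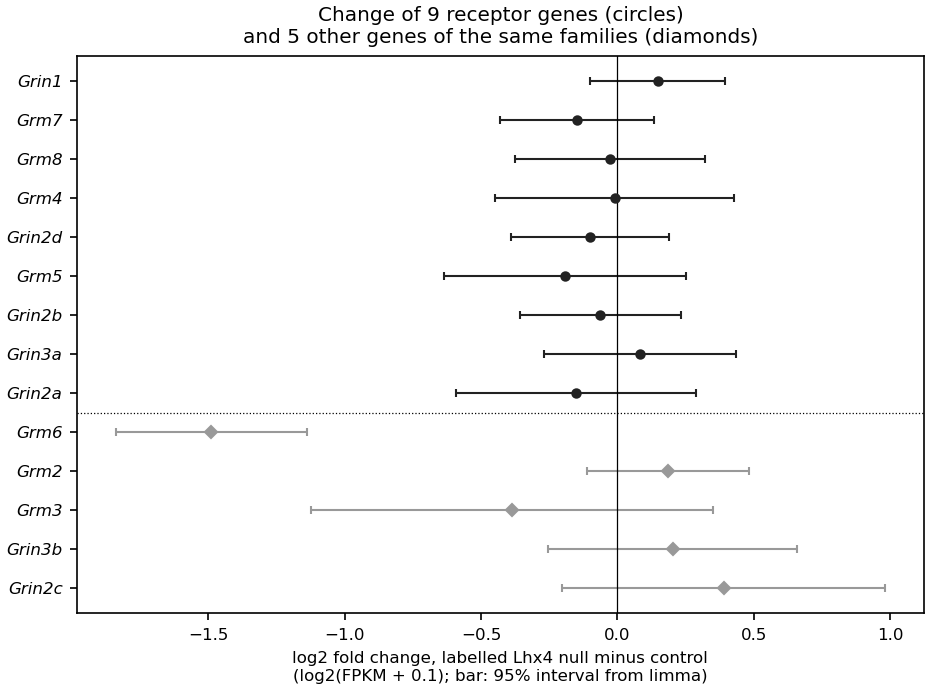
Log2 fold change (null-labelled minus control, log2(FPKM + 0.1) scale, horizontal axis) of the 9 receptor genes (black circles) and 5 other genes of both families (grey diamonds), each with its 95% interval from limma (n = 3 libraries per group). The 9 intervals cross 0, and among the diamonds the interval of *Grm6*, from -1.84 to -1.14, does not.

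The promoters of 4 of the 9 genes were found in the RefSeq table (build GRCm38.p6), with several windows for *Grm7* and *Grm8*. The 250 bases before the start are shown 5′ to 3′ for *Grin1* and *Grm7*, the genes of the 9 with the highest levels, for *Grm8*, and for *Grm6*, the gene of these families that differed between the groups. Capitals mark GGGCGG, the core of a GC box to which Sp1 binds, searched on both strands.
Grin1, chr2:25319188-25319437, minus strand: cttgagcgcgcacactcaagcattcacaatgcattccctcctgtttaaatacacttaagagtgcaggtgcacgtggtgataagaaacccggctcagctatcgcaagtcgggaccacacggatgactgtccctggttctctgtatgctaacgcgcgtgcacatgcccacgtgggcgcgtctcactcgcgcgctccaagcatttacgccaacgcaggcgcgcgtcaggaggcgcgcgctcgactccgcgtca
Grm7, chr6:110645348-110645597, plus strand: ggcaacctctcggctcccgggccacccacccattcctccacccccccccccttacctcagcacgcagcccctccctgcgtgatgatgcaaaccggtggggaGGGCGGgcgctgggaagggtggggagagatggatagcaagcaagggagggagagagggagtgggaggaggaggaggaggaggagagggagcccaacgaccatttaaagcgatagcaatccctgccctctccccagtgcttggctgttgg
Grm8, chr6:28135147-28135396, minus strand: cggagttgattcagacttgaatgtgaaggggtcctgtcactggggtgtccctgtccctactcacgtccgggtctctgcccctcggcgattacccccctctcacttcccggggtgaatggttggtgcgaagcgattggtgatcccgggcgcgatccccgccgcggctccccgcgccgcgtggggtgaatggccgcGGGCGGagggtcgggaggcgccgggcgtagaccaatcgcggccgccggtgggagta
Grm6, chr11:50850435-50850684, plus strand: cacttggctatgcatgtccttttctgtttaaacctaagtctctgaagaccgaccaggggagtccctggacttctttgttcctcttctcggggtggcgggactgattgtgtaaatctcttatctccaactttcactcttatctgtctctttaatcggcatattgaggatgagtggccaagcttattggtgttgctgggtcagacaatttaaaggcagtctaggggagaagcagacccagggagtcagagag
The *Grm7* and *Grm8* windows held 1 GGGCGG each and the *Grin1* and *Grm6* windows held none, where 32.7% of 32817 windows of this length in the table held it. TAATTA, a core that many homeodomain proteins bind, and TAATCC, a core bound by the photoreceptor and BC factors CRX and OTX2, were searched on both strands too. Neither was found in these 4 windows, and 4.85% and 6.25% of all windows held them. The windows shown of *Grin1* and *Grm8* were rich in CpG, with 27 and 29 CpG, whereas that of *Grm7* had 9 and that of *Grm6* had 4, against a median of 6. The *Grm8* windows not shown had 8 and 2 CpG and no GGGCGG. The *Grm7* window not shown had 8 CpG and 1 GGGCGG. These letters describe the windows and say nothing of the factors that bind them.

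*Grin1* (ENSMUSG00000026959, chromosome 2 of GRCm38, 25291181 to 25319187) had the highest level of the NMDA receptor genes. Control replicates 1, 2, and 3 gave 12.7, 16.05, and 12.7 FPKM, with 16.2, 14.6, and 14.8 FPKM for null-labelled replicates 1, 2, and 3. Control replicate 2 lay among the null-labelled libraries, so the groups overlapped, while the other control libraries lay below all 3. The means were 13.8 ± 1.9 and 15.2 ± 0.9 FPKM (SD, n = 3). On the log2 scale the difference was 0.15, with a standard error of 0.11 (adjusted p = 0.74 from limma). Without control replicate 2 it was 0.26 (unadjusted p = 0.021, adjusted p = 0.59 from limma), and without control replicate 1 or 3 it was 0.092 or 0.090. Of the exon bases of *Grin1* in GENCODE vM21, 13.5% overlap *Grin1os*, and as no source used here says whether reads were counted by strand, reads from the overlap cannot be assigned to either gene.

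Among the GluN2 genes, *Grin2d* was highest, at 2.34, 2.48, and 2.88 FPKM across controls and 2.37, 2.46, and 2.31 FPKM across null-labelled libraries. Only control replicate 3 stood above the rest, and the log2 fold change was -0.10 (standard error 0.13). Of the exon bases of *Grin2d*, 9.66% overlap another annotated gene. *Grin2b*, the GluN2 gene of immature synapses in much of the brain, was the steadiest of the 9 across libraries. It was at 1.70, 1.75, and 1.69 FPKM across controls and 1.65, 1.52, and 1.74 FPKM across null-labelled libraries (log2 fold change -0.06, standard error 0.13). *Grin2a*, which joins or replaces *Grin2b* at many maturing synapses, had the lowest level of the 9. It was at 0.405, 0.481, and 0.481 FPKM across controls and 0.423, 0.369, and 0.406 FPKM across null-labelled libraries. Control replicate 1 lay within the null-labelled range, and the log2 fold change was -0.15 (standard error 0.19, 95% interval -0.59 to 0.29). *Grin3a* was at 0.967, 1.08, and 1.02 FPKM across controls and 1.17, 0.975, and 1.13 FPKM across null-labelled libraries, with overlapping groups and a log2 fold change of 0.08 (standard error 0.15).

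FPKM is scaled to length, so subunit levels were set against each other within a library. Such comparisons depend on the transcript lengths used, and that annotation is not given in the sources used here. In GENCODE vM21 the longest transcript has 24060 bases for *Grin2b* and 14634 for *Grin2a*, against 5431 for *Grin2d* and 4895 for *Grin2c*. The ratio of *Grin2a* to *Grin2b* was 0.238, 0.275, and 0.285 in control libraries and 0.256, 0.243, and 0.233 in the null-labelled libraries, with overlapping groups. In every library *Grin2b* was above *Grin2a*, by 3.51 to 4.28 times. *Grin2d* made up 48.9 ± 2.7% (SD, n = 3) of the summed FPKM of the 4 GluN2 genes in control libraries and 46.4 ± 0.8% in the others, and *Grin2b* 32.8 ± 2.3% and 32.0 ± 3.2%. *Grin2c*, not of the 9, took 9.61 ± 1.61% and 13.7 ± 3.9%. The share of *Grin2a* was 8.33 to 9.04% in control libraries and 7.05 to 8.26% in the others, without overlap, while the other GluN2 shares overlapped. These are parts of a sum, so a higher *Grin2c* lowers the others, and the FPKM of *Grin2a* itself overlapped. The difference in share was not tested. *Grin1* was at 2.64 ± 0.36 times the summed GluN2 genes in control libraries and 2.97 ± 0.16 times in the others. The ratio of *Grin3a* to *Grin1* overlapped between the groups, at 0.0746 ± 0.0067 and 0.0716 ± 0.0047.

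**Figure D2:**
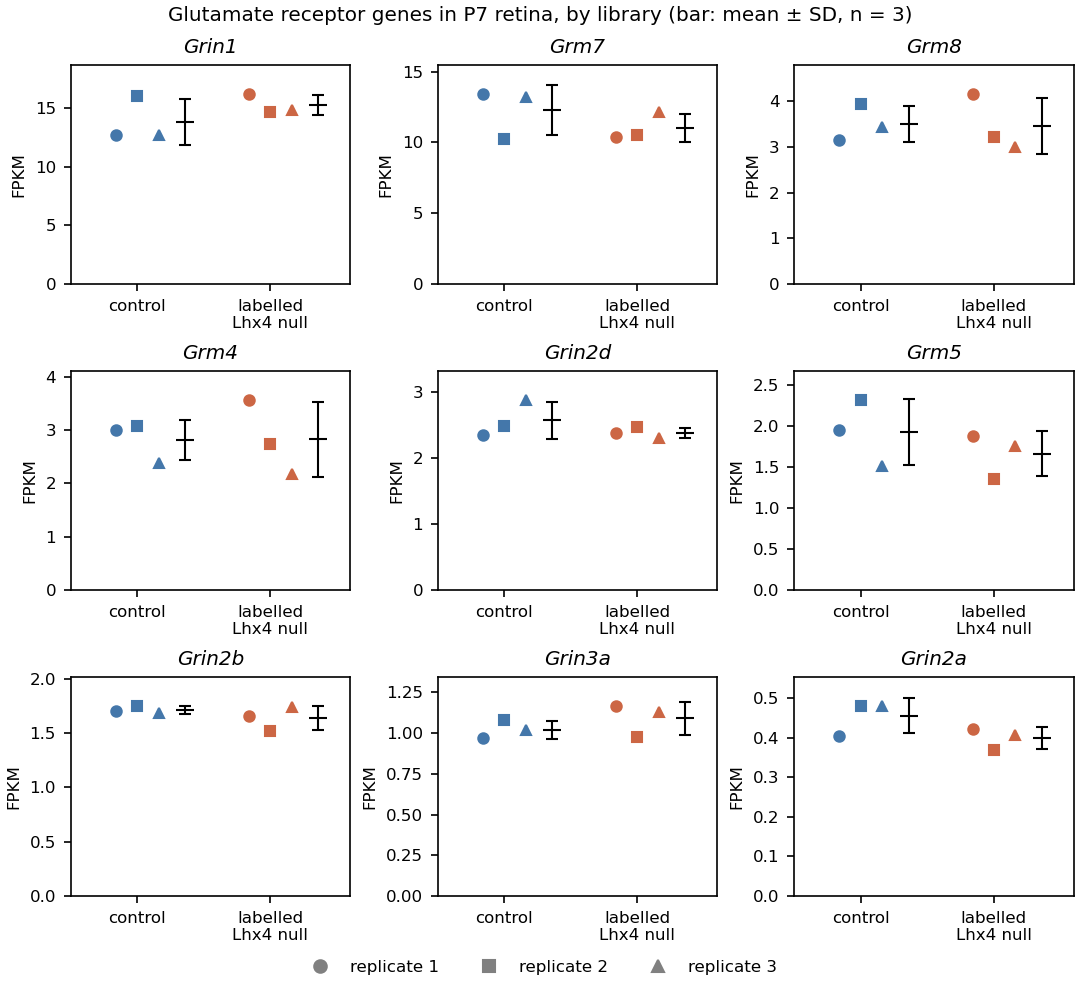
FPKM (vertical axes, from 0) of the 9 receptor genes in each of the 6 P7 libraries, with a symbol for each replicate number and the mean ± SD of each group (n = 3) in black. In each panel the symbols of control libraries (blue) and of null-labelled libraries (red) overlap. The panels are ordered by control mean, from *Grin1* at 13.8 FPKM to *Grin2a* at 0.455 FPKM.

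*Grm7* (ENSMUSG00000056755, chromosome 6, 110645581 to 111567230) was the most abundant of the 4 metabotropic receptor genes. Control replicates 1, 2, and 3 gave 13.4, 10.2, and 13.2 FPKM, with 10.4, 10.5, and 12.2 FPKM for null-labelled replicates 1, 2, and 3. The lowest of the 6 libraries was a control, and the log2 fold change was -0.15 (standard error 0.12, 95% interval -0.43 to 0.13). Without control replicate 2 it was -0.27 (unadjusted p = 0.030, adjusted p = 0.61 from limma), and without control replicate 1 or 3 it was -0.079 or -0.092. *Grm8*, which encodes a presynaptic autoreceptor found at photoreceptor terminals, was at 3.16, 3.94, and 3.43 FPKM across controls and 4.16, 3.22, and 3.00 FPKM across null-labelled libraries. The highest and the lowest library were both null-labelled. Its log2 fold change was -0.03 (standard error 0.15), and it turned positive, to 0.057, 0.016, and 0.066, without control replicate 2, null-labelled replicate 2, or null-labelled replicate 3. *Grm4* was at 2.99, 3.07, and 2.37 FPKM across controls and 3.57, 2.74, and 2.17 FPKM across null-labelled libraries, again with both extremes in the null-labelled group. Its log2 fold change was -0.01 (standard error 0.19), and it was 0.037, 0.056, and 0.16 without control replicate 1, control replicate 2, or null-labelled replicate 3.

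*Grm5*, the group I gene among the 9, had the widest spread between control libraries relative to its mean (coefficient of variation 21.0%), at 1.95, 2.32, and 1.51 FPKM. In the null-labelled libraries it was at 1.88, 1.36, and 1.75 FPKM. The group ranges overlapped, and the log2 fold change, -0.19 (standard error 0.19, 95% interval -0.64 to 0.25), was the lowest of the 9 with all libraries in the fit. It was -0.055 without control replicate 2, where *Grm7* was lower, -0.062 without null-labelled replicate 2, and -0.35 without control replicate 3.

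Against the other group III genes, *Grm7*, *Grm8*, and *Grm4* held different shares of the family in the 2 groups, while their own levels overlapped. The group III genes other than *Grm6* summed to 18.6 ± 1.2 FPKM across controls and 17.3 ± 0.8 FPKM across null-labelled libraries (SD, n = 3), with overlapping ranges, and among these 3 genes *Grm7* took 65.8 ± 5.6% and 63.8 ± 6.4%. *Grm6* was at 51.2 to 74.3 FPKM across controls and 17.9 to 23.5 FPKM across null-labelled libraries. With *Grm6* in the sum, its share was 76.1 ± 4.5% against 55.1 ± 2.6%, and that of *Grm7* 15.9 ± 4.1% against 28.7 ± 3.2%. *Grm6* was at 3.88 to 7.27 times *Grm7* in control libraries and at 1.70 to 2.26 times *Grm7* in the others. These shares are parts of a sum that holds *Grm6*, so a lower *Grm6* raises the others, and they are given without a test. In bulk retina, fewer cells of a type and less RNA per cell cannot be told apart.

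**Figure D3:**
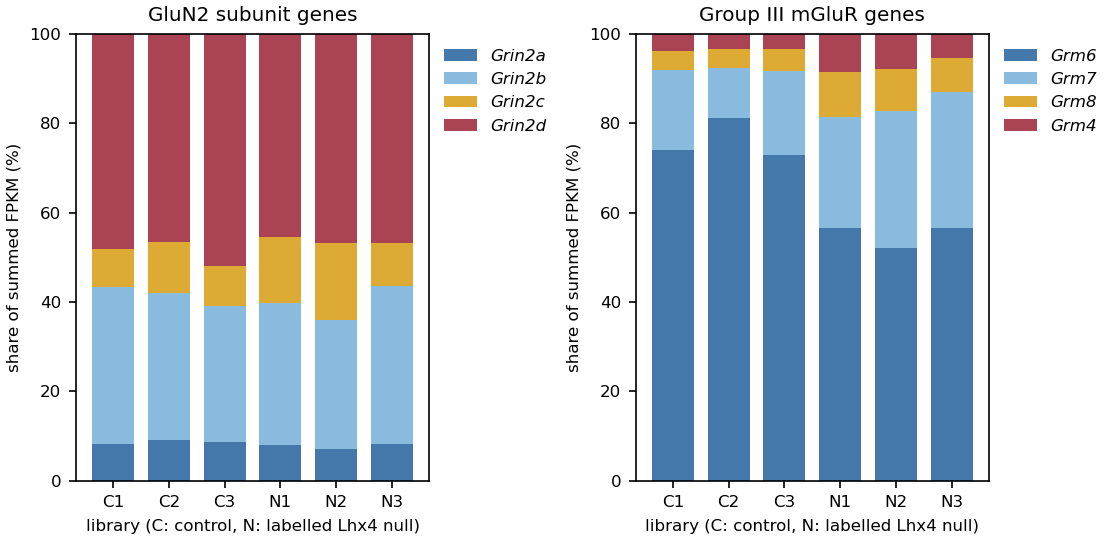
Share of the summed FPKM (vertical axes, %) held by the 4 GluN2 genes (left) and the 4 group III metabotropic receptor genes (right) in each library (C, control; N, null-labelled). *Grin2d* holds the largest part of each left bar, and on the right *Grm6* holds 72.9 to 81.2% of control bars and 52.1 to 56.6% of the others.

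By mean FPKM, the order was *Grin1*, *Grm7*, *Grm8*, *Grm4*, *Grin2d*, *Grm5*, *Grin2b*, *Grin3a*, and *Grin2a* in both groups. This order too depends on the transcript lengths used. In control libraries the ranges of *Grin1* and *Grm7*, of *Grm4* and *Grin2d*, and of *Grm5* and *Grin2b* overlapped, and the other neighbours did not. In the null-labelled libraries, *Grin1* and *Grm7* no longer overlapped, and the overlapping neighbours were *Grm8* and *Grm4*, *Grm4* and *Grin2d*, and *Grm5* and *Grin2b*. Large loci were common among the 9 genes. The 9 span 28.0 to 922 kb in GENCODE vM21, with a median of 428 kb against 23.9 kb for the genes tested. Of the 9, 6 exceed 100 kb, where 14.9% of the genes tested do. *Grin1*, at 28.0 kb, and *Grin2d*, at 46.5 kb, lie nearest the median of the genes tested.

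The order of the libraries differed from gene to gene. *Grin1*, *Grm4*, and *Grm8* were each highest in null-labelled replicate 1 and next highest in control replicate 2. *Grm7* ran the other way, with control replicates 1 and 3 and null-labelled replicate 3 above the other 3 libraries. *Grm3*, a group II gene outside the 9, had the same arrangement, at 1.79, 1.16, and 2.02 FPKM across controls and 0.937, 0.920, and 2.05 FPKM across null-labelled libraries. These arrangements were noticed in the values and carry no test. Across all genes tested, control replicate 2 and null-labelled replicate 1 deviated from their group means alike (r = 0.24). This weak likeness was over all genes tested, and whether that of the receptor genes exceeded it was not tested. Null-labelled replicate 1 was the highest library for 4 of the 9 genes and the shallowest in depth, and null-labelled replicates 2 and 3 were the lowest for 3 genes each. The genes whose pattern was most like that of *Grin1* (mean absolute difference of centred log2 values over 6 libraries, among 12485 genes above a mean of 1 FPKM) were *Cplx1* at 0.016, *Atrnl1* at 0.019, and *AI593442* at 0.026. Complexin 1, the product of *Cplx1*, binds the SNARE complex of synaptic vesicles. *Grin1* was taken here as the gene of the 9 with the lowest p (unadjusted p = 0.21 from limma). With so many candidates and 6 values each, close matches are bound to occur, and the likeness was not tested.

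**Figure D4:**
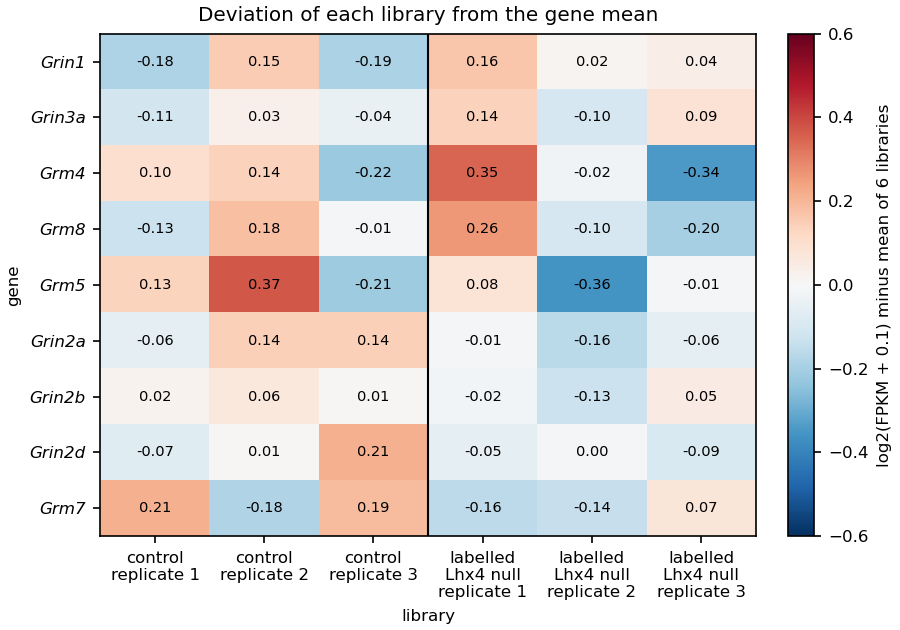
Log2(FPKM + 0.1) of the 9 receptor genes (rows) in each library (columns), less the mean of the 6 libraries, with red above and blue below the mean. The vertical line parts control from null-labelled libraries, and the *Grm4* row runs from 0.35 to -0.34 within the null-labelled group.

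Other genes of both families were measured beside the 9. *Grm2* (log2 fold change 0.18), *Grin2c* (0.39), *Grin3b* (0.20), and *Grm3* (-0.39) did not pass the test, with adjusted p-values from 0.72 to 0.81 from limma and overlapping groups. Of the exon bases of *Grin3b*, 32.1% overlap *Tmem259*, and 11.0% of those of *Grm6* and 9.60% of those of *Grm2* overlap other annotated genes. Of these 4 and *Grm6*, *Grm6* alone passed the test.

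Genes that work with these receptors were not called either. Of 43 partner genes in 4 lists, 42 were tested, and limma gave 0 of them an adjusted p below 0.05. At an unadjusted p under 0.05, 3 did, or 7.14% against 8.15% of all genes tested. The groups did not overlap in 5 of the 42, where they did not in 14.2% of all genes tested. These were *Dlgap2*, *Dlgap3*, *Slc7a10*, *Grip1*, and *Gnai2*, each higher in the null-labelled libraries. For the 19 genes of the NMDA receptor scaffold the median difference was 0.01 on the log2 scale. In this list *Dlgap2* and *Dlgap3*, whose products link PSD-95 to SHANK, were at 0.45 and 0.23 (unadjusted p = 0.032 and 0.041, adjusted p = 0.59 and 0.60 from limma). *Dlg1*, a PSD-95 relative, was at -0.15 (adjusted p = 0.67 from limma). Of the co-agonist genes, *Slc6a9*, the glycine transporter GlyT1 that is also an AC marker, was at 70.2 to 81.3 FPKM across controls and 70.8 to 91.9 FPKM across null-labelled libraries. *Srr*, which makes D-serine, had a log2 fold change of -0.07, and *Slc7a10*, a transporter of D-serine and glycine, was at 0.231 ± 0.054 and 0.368 ± 0.018 FPKM (SD, n = 3; adjusted p = 0.61 from limma). *Dao*, which degrades D-serine, did not pass the filter. The 10 scaffold and transsynaptic partners of the metabotropic receptors lay between -0.11 and 0.16, with *Grip1*, a PDZ scaffold, at 0.10, *Cyth2*, an exchange factor for small G proteins, at -0.08, and *Grasp*, which links group I receptors to it, at 0.16. Of the 10 G protein and effector genes, *Gnai2* was at 0.22 (unadjusted p = 0.042, adjusted p = 0.60 from limma), *Gnaq* was at 0.09, and *Gnao1*, the Go subunit that couples mGluR6 in ON BCs, was at -0.13.

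Markers of rods, BCs, ACs, ganglion cells, and Müller glia were measured in every library. The 6 rod markers summed to 3027 to 3511 FPKM for controls and 2512 to 3291 FPKM for null-labelled libraries, with 5 of the 6 lower, a median log2 difference of -0.31, and 0 called by limma, also at an unadjusted p under 0.05. Summed over 8 ganglion cell markers, FPKM lay between 319 and 358 in control libraries and between 321 and 347 in the others. The 10 AC markers summed to 509 to 556 and 555 to 598 FPKM, with 9 of the 10 higher, 0 called by limma, and 4 at an unadjusted p under 0.05. The 10 BC markers, *Grm6* among them, summed to 824 to 977 and 636 to 718 FPKM, with 8 lower and 4 called, all of them lower. At an unadjusted p under 0.05 from limma, 7 were lower and 1 was higher. Some of these BC markers had been reported as lower at P7 by the study itself. Müller glia markers (522 to 582 against 623 to 662 FPKM) and cone markers (175 to 196 against 231 to 305 FPKM) did not overlap between the groups in sum. Of the 6 cone markers, 4 were higher, 1 of them called (adjusted p = 0.031 from limma), and 2 were lower, 1 of them at an unadjusted p under 0.05, with log2 differences from -1.27 to 0.88. Of the 6 Müller glia markers, 5 were higher, 0 were called by limma, and 1 had an unadjusted p under 0.05. Horizontal cell (11.6 to 14.3 and 12.8 to 13.3 FPKM), microglia (25.8 to 29.6 and 29.1 to 40.2 FPKM), and endothelium markers (53.4 to 64.9 and 60.4 to 68.4 FPKM) overlapped. Of the 4 endothelium markers 3 were lower, with 1 lower and 1 higher at an unadjusted p under 0.05 from limma. Of the 6 microglia markers 5 were higher, 2 of them at an unadjusted p under 0.05. In both lists limma called 0. Pigment epithelium markers were low and did not overlap, at 5.77 to 11.1 and 11.9 to 22.3 FPKM. Of the 5, 4 were higher, 2 of them at an unadjusted p under 0.05 from limma, and 0 were called. Lens markers ranged from 0.0781 to 9.75 FPKM, highest in control replicate 2, with *Lim2* below a mean of 0.1 FPKM. Relative depth, recovered from whole-fragment steps in the lowest values, was 76.9 to 100% of the deepest library for control and 46.7 to 65.9% for the others. Depth thus cannot be told apart from the group, and the part of the marker differences in the receptor values was not tested.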

How the data were processed

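The 6 libraries came from P7 retina, 3 labelled control and 3 labelled *Lhx4* null, with groups and replicate numbers taken from the sample labels. The deposited values are FPKM per gene, which the authors made by mapping paired-end reads with TopHat2 to GRCm38 and estimating expression with Cufflinks. Versions, annotation, and use of strand are not given in the sources used here. The table holds no counts and no totals, so no count model was fitted, and 0 columns were left unused.

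Of 21744 genes, the 15200 whose mean over all 6 libraries reached 0.1 FPKM were fitted with R 4.3.3 and limma 3.58.1 as log2(FPKM + 0.1), null-labelled minus control, with a mean-variance trend and no block. P-values are two-sided and adjusted by Benjamini and Hochberg over all genes tested. The fit and the depth estimate were tested on simulated data. Relative depth was the most frequent ratio of values between libraries among genes under 0.1 FPKM, and ratios closed to within 0.106%. Replicate libraries correlated with r between 0.982 and 0.992 on the log2 scale, across genes, which are not independent replicates.

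The receptor genes, the partner and marker lists, and the alternatives were chosen with earlier results of these data known. The genes named were the 9 receptors, 5 others of both families (1 more is not reported here), *Lhx4*, the 3 partner genes of each list with the lowest p, and the 3 genes most like the receptor gene with the lowest p. Gene positions are from GENCODE vM21 (GRCm38), and promoter windows from the RefSeq table. The alternatives changed the pseudocount, filter, scaling, trend, and replicate block, and left out each library in turn. Plots were drawn with matplotlib 3.10.9.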

Additional observations from a re-analysis of the deposited data

How the results depend on the processing

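Over 14 alternative settings, limma called 0 of the 9 receptor genes at an adjusted p under 0.05, and their lowest adjusted p was 0.55. At an unadjusted p under 0.05 the count was 0 in the 8 settings that kept all libraries and from 0 to 2 over the 6 fits that each left out 1 library, with 2, *Grin1* and *Grm7*, without control replicate 2. Of 125 log2 fold changes of the 9 genes, 119 kept their sign and their side of the threshold and 6 changed sign. The sign changes were in *Grm4*, from -0.19 to 0.16, and in *Grm8*, from -0.16 to 0.066, over the fits that left out 1 library. *Grin2a* had no value with the filter at a mean of 1 FPKM. Over the whole table, 34 genes were called, against 20 with every gene above 0 in any library kept, 15 with the replicate block, and from 15 to 31 over the fits that left out 1 library. At an unadjusted p under 0.05 there were 1239 genes, and from 690 to 1980 over the fits that left out 1 library, 690 without control replicate 3, 772 without control replicate 1, and 1980 without null-labelled replicate 1. The calls under an adjusted p fell to 16 and 17 without control replicate 1 or 3, to 20 without control replicate 2, and to 17 and 15 without null-labelled replicate 2 or 3.

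The labels share replicate numbers 1 to 3 across groups and do not state a pairing. Deviations of same-numbered libraries from their group means had r of -0.13, -0.00020, and 0.16 across genes. With 3 libraries per group these values cannot exclude a pairing, and the main fit used no block. The largest r in either direction were 0.24 and -0.24, of control replicate 2 with null-labelled replicates 1 and 3. With the replicate block, 0 of the 9 genes were called. *Grm6* lay above an adjusted p of 0.05 from limma with the block (0.061), without the trend (0.065), and without null-labelled replicate 2 (0.056) or 3 (0.051). Since FPKM carry no totals, the fragments behind the lower receptor values are unknown. Changes inside the 95% intervals are compatible with the values, but the bounds are not limits of detection. *Lhx4*, with an interval from 0.30 to 0.72, was not called either (adjusted p = 0.098 from limma).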
